A study of Homo sapiens with 14 samples.

Results

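Epithelial-to-mesenchymal transition (EMT) genes were examined in MDA-MB-231 cells, an established human breast cancer line that lacks estrogen receptor. The set was 10 genes given by name, VIM, FN1, CD44, CDH1, CDH2, SNAI1, SNAI2, TWIST1, ZEB1 and ZEB2, out of 58434 gene symbols in the count table. The rule names the genes and uses no measured value, but it was written with earlier results of these data known. Stable cells carried a doxycycline-inducible pTRIPZ vector with a TurboRFP reporter and either a non-silencing shRNA (MB-231-shNSi, 2 cultures) or an shRNA against EIF4G2, which encodes the initiation factor DAP5 (MB-231-shDAP5, 2 cultures). All cultures received doxycycline at 1 µg/ml for 6 days, the controls included, and the labels name 1 construct for each arm. RNA was sequenced from total mRNA, from light polysomes (mRNAs carrying few ribosomes) and from heavy polysomes (mRNAs carrying many), and from a moderate polysome pool of the shNSi cultures alone, which makes 14 libraries of 25899838 to 30795910 counts.

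EMT is the program by which epithelial cells lose their cell junctions and gain the cytoskeleton, matrix and motility of mesenchymal cells. Its transcription factors of the SNAI, ZEB and TWIST families bind E-boxes and repress epithelial genes, of which CDH1 (E-cadherin) is the best known target. Vimentin (VIM), fibronectin (FN1) and N-cadherin (CDH2) are standard markers of the mesenchymal state, and CD44, the hyaluronan receptor, marks mesenchymal and stem-like breast cancer cells. DAP5 resembles the eIF4G scaffold of translation initiation but lacks the part that binds the cap-binding protein eIF4E, so an mRNA may be read here at 2 levels, its amount and its place in the polysome gradient.

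Some labels limit the reading. The shDAP5 light libraries were titled light but carried the letter code of the shNSi moderate pool, and the title was followed here. Those of shDAP5 total mRNA had polysome in the title but the code of total mRNA, and they were taken as total mRNA. The study describes 2 independent experiments, and no label pairs the cultures of the 2 arms. Lysates of whole cultures were sequenced, so fewer cells making an mRNA and less of it per cell cannot be told apart, and CPM (counts for each 1000000 of a library, after TMM scaling) gives a share of each fraction's mRNA, not its amount.

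EIF4G2 mRNA, the target of the shRNA, lay between 541 and 749 CPM in the 6 shDAP5 libraries and between 1323 and 2516 CPM in the 8 shNSi libraries, with no overlap. In total mRNA it was lower by 2.15-fold (log2 −1.11, SE 0.18, edgeR quasi-likelihood test, adjusted p = 0.0172). The adjusted p was 0.0501 without TMM, 0.143 with limma, 0.443 with all 14 libraries in 1 fit and 0.680 without shDAP5 culture 1, with log2 −0.90 or lower in each. By the same test EIF4G2 did not pass in heavy polysomes (log2 −0.855, SE 0.38, adjusted p = 0.0691) or light polysomes (log2 −1.33, SE 0.32, adjusted p = 0.430). Of the markers checked against the label, the progesterone receptor gene PGR had 0 counts in every library, the estrogen receptor gene ESR1 2 to 16 counts, and EPCAM, a surface protein of epithelial cells, 76 to 169 counts. The 2 libraries of a group correlated at Pearson's r 0.970 to 0.993 in log2 CPM over 16235 genes, which are not independent replicates.

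The sequence around the start codon, where initiation takes place, is shown for the 6 members that changed in heavy polysomes, as written in GENCODE v29 (GRCh38, 1 transcript for each gene, sense strand, 6 bases before the ATG to 12 after). Capitals mark the base 3 before the ATG, the ATG and the base right after it, the positions that matter most in the start context described by Kozak.
VIM: gcaGccATGTccaccaggtcc
FN1: ctcAacATGCttaggggtccg
CD44: gacAccATGGacaagttttgg
SNAI1: accActATGCcgcgctctttc
ZEB1: aggAtcATGGcggatggcccc
ZEB2: ttaTcaATGAagcagccgatc
CD44 and ZEB1 have both a purine 3 before the ATG and a G right after it, which 42.6% of 18916 coding genes have. VIM, FN1 and SNAI1 have the purine alone, and the purine is found in 84.9% of genes. ZEB2 has neither.

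Upstream sequence is shown for VIM and FN1, which were lower together in heavy polysomes, and for ZEB1, whose place in the gradient differed most together with FN1. The RefSeq windows (GRCh38.p14, the gene's own strand) hold bases before the most upstream start of the gene that lie in none of its annotated exons. They run over 250 bases for VIM (chr10:17227991-17228240, plus strand), 146 bases for FN1 (chr2:215436173-215436318, minus strand) and 250 bases for ZEB1 (chr10:31318167-31318416, plus strand). Capitals mark matches on either strand to the E-box CAGGTG, to the cyclic AMP response element TGACGTCA and to the GC box GGGCGG.
VIM: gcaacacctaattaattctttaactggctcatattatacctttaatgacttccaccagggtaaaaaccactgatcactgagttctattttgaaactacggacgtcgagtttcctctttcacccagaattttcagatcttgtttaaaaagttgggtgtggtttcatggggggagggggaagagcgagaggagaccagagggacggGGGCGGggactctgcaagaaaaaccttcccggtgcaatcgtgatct
FN1: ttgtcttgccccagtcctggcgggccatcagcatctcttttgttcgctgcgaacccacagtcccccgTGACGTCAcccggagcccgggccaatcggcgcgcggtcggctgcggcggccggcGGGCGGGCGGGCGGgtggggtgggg
ZEB1: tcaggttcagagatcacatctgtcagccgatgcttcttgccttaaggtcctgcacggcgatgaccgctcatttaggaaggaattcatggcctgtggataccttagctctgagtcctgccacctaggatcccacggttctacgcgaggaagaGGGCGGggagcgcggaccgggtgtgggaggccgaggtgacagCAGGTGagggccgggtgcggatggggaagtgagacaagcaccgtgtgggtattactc
FN1 held 1 cyclic AMP response element and 3 overlapping GC boxes, VIM 1 GC box, and ZEB1 1 GC box and 1 E-box. Over 35116 promoter windows of 250 bases, 42.6% held a GC box, 17.5% an E-box and 1.65% a cyclic AMP response element.

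In heavy polysomes, the mRNAs of VIM, FN1, CD44, ZEB1 and ZEB2 fell after DAP5 silencing and that of SNAI1 rose, where 30.9% of all genes tested passed. In total mRNA 0 members passed edgeR's quasi-likelihood test (0.354% of all genes) and 3 passed DESeq2 (FN1, CD44 and SNAI1, among 273 genes). The fold in heavy polysomes was 6.90 for FN1, 3.85 for CD44 and 2.56 for VIM. Relative to total mRNA, the lower level in heavy polysomes passed edgeR's test for FN1 and ZEB1 (8.23% of all genes were called lower). DESeq2, which called 2127 genes, also called VIM, CD44 and ZEB2. Without TMM and with limma 0 members were called, with 0 and 408 genes called in all. Both the FN1 and the ZEB1 value were smaller without shNSi culture 2 and without shDAP5 culture 2. The levels in every library are given first.

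Levels between genes were compared as CPM per kb of annotated exon (union of all GENCODE v29 transcripts of the gene). In shNSi total mRNA, VIM led by far with 2847 ± 44.0 CPM per kb (SD, n = 2 here and below), followed by CD44 with 93.7 ± 16.0. SNAI2 (24.9 ± 6.1) and FN1 (17.3 ± 5.5) came next and their cultures overlapped, with FN1 at 13.4 and 21.2 and SNAI2 at 29.2 and 20.5. Below them were ZEB1 (9.23 ± 2.43), ZEB2 (1.68 ± 0.29) and SNAI1 (1.05 ± 0.60), the last 2 overlapping. In shDAP5 total mRNA the order was VIM (2201 ± 25.5), CD44 (41.7 ± 14.3), SNAI2 (22.9 ± 0.12), ZEB1 (10.9 ± 1.6), FN1 (9.29 ± 1.10), SNAI1 (2.99 ± 0.72) and ZEB2 (1.58 ± 0.12), so FN1 stood below ZEB1, with overlapping cultures, and SNAI1 above ZEB2, without overlap. ZEB2 has many annotated transcripts, with 13357 bases of exon in all, which lowers its value per kb.

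The cadherins and TWIST1 were at the limit of detection. CDH1, the epithelial cadherin, had 0 to 8 counts in a library, and CDH2, the cadherin of mesenchymal cells, 3 to 13. TWIST1, a basic helix-loop-helix factor of EMT, had 0 counts in all 14 libraries, which allows a level of up to 0.0902 to 0.135 CPM depending on the library (3 counts, counting error only). These 3 genes did not pass the filter on low counts in total mRNA, in either polysome fraction or in either translation efficiency, so 7 of the 10 members were tested there. CDH2 passed it only in the fit of heavy against light polysomes, where it gave nothing past the threshold. At these counts a small difference in CDH1, CDH2 or TWIST1 between the arms could not be detected.

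**Figure D1:**
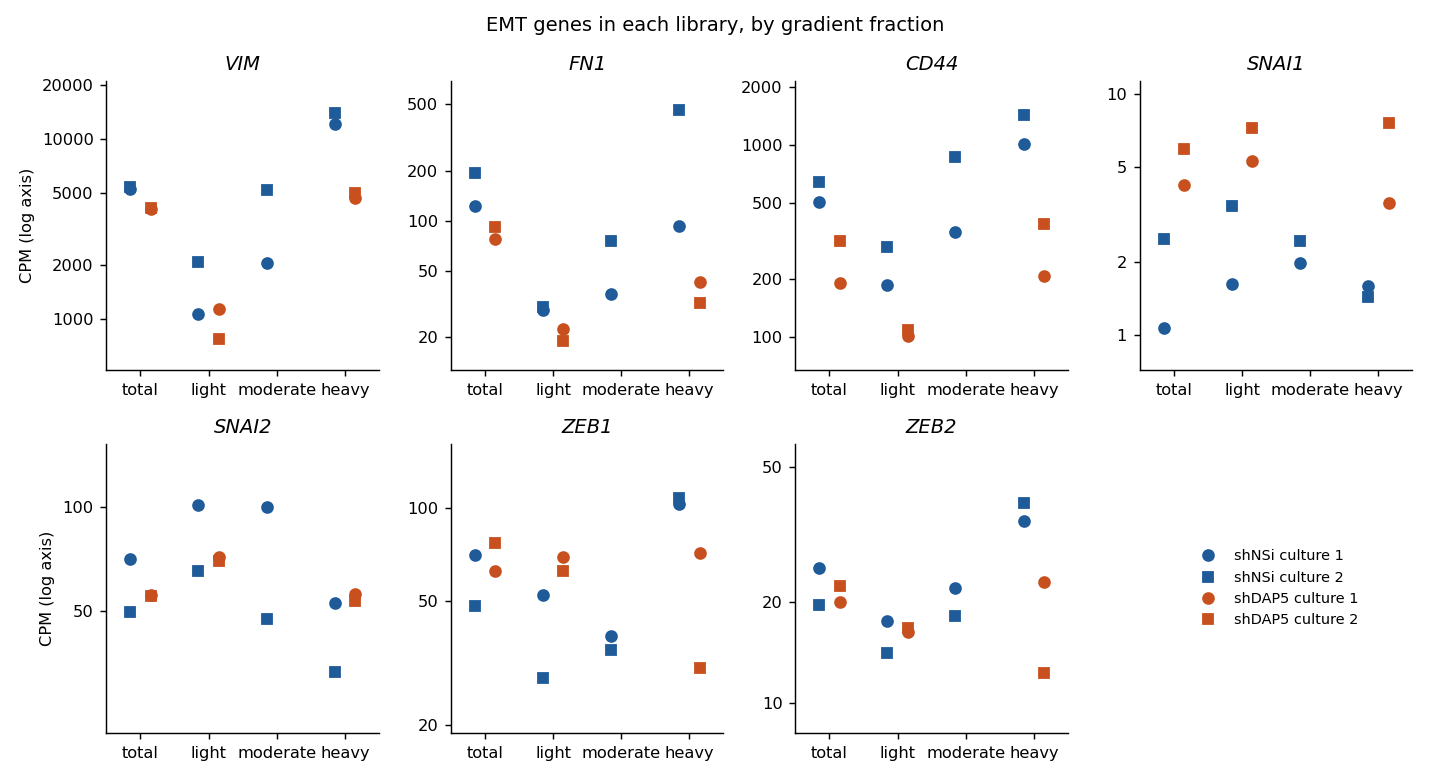
CPM (log axis, a separate range for each gene) of the 7 tested EMT genes in total mRNA and the light, moderate and heavy polysome fractions, with 1 point for each library, blue for shNSi, orange for shDAP5, circles for culture 1 and squares for culture 2. In heavy polysomes both shDAP5 points lie below both shNSi points for VIM, FN1, CD44, ZEB1 and ZEB2, and above them for SNAI1 and SNAI2.

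VIM (chr10:17228259-17237593, plus strand, GRCh38 as for the genes that follow) encodes vimentin, the intermediate filament protein of mesenchymal cells. Its total mRNA level was 5260 and 5376 CPM in the shNSi cultures and 4078 and 4145 CPM in the shDAP5 cultures. In heavy polysomes it was 12140 and 13990 CPM in shNSi and 4693 and 5025 CPM in shDAP5. The arms did not overlap in either fraction, as in 42.3% of all genes tested in total mRNA and 66.9% in heavy polysomes, and the gap was wider in heavy polysomes. In light polysomes the levels were 1059 and 2063 CPM in shNSi and 1128 and 776 CPM in shDAP5, which overlap. The shNSi moderate pools had 2033 and 5214 CPM, each between the light and heavy level of its own culture. The fitted change was log2 −0.34 in total mRNA (SE 0.15, adjusted p = 0.370) and −1.35 in heavy polysomes (SE 0.40, adjusted p = 0.00559), a fall of 2.56-fold in the latter. The antisense gene VIM-AS1 overlaps VIM and had 3.03 to 10.8 CPM, and whether the counting used strand is not given in the sources used here.

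FN1 (chr2:215360440-215436172, minus strand) encodes fibronectin, a large secreted glycoprotein of the extracellular matrix. In total mRNA it measured 122 and 193 CPM in shNSi and 77.5 and 91.5 CPM in shDAP5. In heavy polysomes the shNSi cultures stood far apart, at 93.5 and 459 CPM, while the shDAP5 cultures had 42.9 and 31.9 CPM. Light polysomes had 29.2 and 30.2 CPM in shNSi and 22.4 and 19.0 CPM in shDAP5, and the moderate pools 36.5 and 75.6 CPM. Both shDAP5 cultures were thus below both shNSi cultures in each of the 3 fractions, where in light polysomes 41.4% of all genes tested separated the arms in either direction. The change was log2 −0.87 in total mRNA (SE 0.22, adjusted p = 0.0977) and −2.79 in heavy polysomes (SE 0.64, adjusted p = 0.0104). Without shNSi culture 2, the library at 459 CPM, the heavy polysome change was −1.31 and still passed the test (adjusted p = 0.0114), but was then smaller than those of CD44 (−1.73) and SNAI1 (1.80).

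CD44 (chr11:35138870-35232402, plus strand) encodes the transmembrane receptor for hyaluronan. Its total mRNA level was 503 and 641 CPM in shNSi against 193 and 316 CPM in shDAP5. Heavy polysomes held 1004 and 1424 CPM in shNSi against 209 and 389 CPM in shDAP5, and light polysomes 187 and 295 CPM against 102 and 109 CPM. No shDAP5 library reached an shNSi library of its fraction. The arms separated, in either direction, for 42.3% of all genes tested in total mRNA, 66.9% in heavy and 41.4% in light polysomes. The change in heavy polysomes was a fall of 3.85-fold (log2 −1.94, SE 0.39, adjusted p = 3.2e-05). In total mRNA the difference of log2 −1.14 (SE 0.23, adjusted p = 0.0584) missed the threshold, and it passed with DESeq2, without the low-count filter, without shNSi culture 1 and without shDAP5 culture 2.

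SNAI1 (chr20:49982999-49988886, plus strand) encodes Snail, a zinc finger repressor of CDH1 whose protein is short-lived. It was scarce, with 31 to 229 counts in a library. Total mRNA had 1.07 and 2.49 CPM in shNSi and 4.18 and 5.89 CPM in shDAP5. In heavy polysomes the levels were 1.60 and 1.44 CPM in shNSi and 3.53 and 7.56 CPM in shDAP5, and in light polysomes 1.63 and 3.42 CPM against 5.29 and 7.24 CPM. SNAI1 was the only member higher in both shDAP5 cultures than in both shNSi cultures in all 3 fractions, and the shares of all genes that separate the arms, 42.3%, 41.4% and 66.9% in total, light and heavy, apply to it as well. In heavy polysomes it rose by 3.80-fold (log2 1.93, SE 0.45, adjusted p = 0.000436). The differences of log2 1.54 in total mRNA (SE 0.41, adjusted p = 0.117) and 1.34 in light polysomes (SE 0.44, adjusted p = 0.510) did not pass.

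SNAI2, on chromosome 8 (48917604 to 48921740, minus strand), encodes Slug, the close relative of Snail. Its total mRNA level was 70.9 and 49.8 CPM in shNSi and 55.9 and 55.4 CPM in shDAP5, with the shDAP5 cultures inside the shNSi range. Heavy polysomes had 52.7 and 33.4 CPM in shNSi and 56.0 and 53.7 CPM in shDAP5. Light polysomes had 102 and 65.2 CPM in shNSi and 71.9 and 70.0 CPM in shDAP5. No change of SNAI2 passed the test, with log2 −0.09 (SE 0.20) in total mRNA, 0.41 (SE 0.33, adjusted p = 0.345) in heavy and −0.21 (SE 0.30) in light polysomes. SNAI1 and SNAI2 thus gave different values for 2 factors of the same family, and the difference between the genes was not tested.

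ZEB1 (chr10:31318495-31529814, plus strand) encodes a zinc finger and homeobox repressor of epithelial genes. In total mRNA it measured 70.4 and 48.3 CPM in shNSi and 62.6 and 77.0 CPM in shDAP5, overlapping. Heavy polysomes had 103 and 107 CPM in shNSi and 71.4 and 30.5 CPM in shDAP5. In light polysomes the order was the other way, with 52.2 and 28.2 CPM in shNSi and 69.4 and 62.8 CPM in shDAP5. The heavy polysome fall was log2 −0.97 (SE 0.33, adjusted p = 0.0174), while total mRNA (log2 0.26, SE 0.21) and light polysomes (log2 0.74, SE 0.33, adjusted p = 0.586) did not pass. Its overlapping antisense gene ZEB1-AS1 had 1.03 to 6.47 CPM.

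ZEB2 (chr2:144364364-144524583, minus strand), the relative of ZEB1, had 25.2 and 19.6 CPM in shNSi total mRNA and 19.9 and 22.2 CPM in shDAP5 total mRNA. In heavy polysomes it had 34.7 and 39.1 CPM in shNSi and 22.9 and 12.3 CPM in shDAP5. Light polysomes had 17.6 and 14.1 CPM in shNSi and 16.2 and 16.7 CPM in shDAP5. The arms separated only in heavy polysomes, as those of 66.9% of all genes tested did. The fall there was log2 −0.99 (SE 0.34, adjusted p = 0.0164).

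By count, 6 of the 7 tested members passed the adjusted threshold in heavy polysomes, 5 lower and 1 higher, where 30.9% of all 14270 genes tested passed (16.7% lower and 14.2% higher). All 7 had both shDAP5 cultures beyond both shNSi cultures in heavy polysomes, as 66.9% of all genes tested did. In total mRNA 0 of 7 passed by edgeR's quasi-likelihood test (0.354% of 14992 genes), 4 had an unadjusted p under 0.05 (12% of all genes) and DESeq2 called 3, with 273 of 14992 genes called in all. By edgeR, FN1 (−1.19) and CD44 (−1.33) passed in total mRNA without shNSi culture 1, SNAI1 (2.26) without shNSi culture 2 and CD44 (−1.55) without shDAP5 culture 2, where 386, 130 and 265 genes were called. In light polysomes 0 of 7 passed (0% of 15529 genes), 2 had an unadjusted p under 0.05 (8.56%), and DESeq2 called 0. With the shNSi moderate pool as the control of the shDAP5 light libraries, whose code it shares, 3940 genes were called in all and 5 of 7 members passed, with VIM (log2 −1.83), FN1 (−1.34) and CD44 (−2.44) lower and SNAI1 (1.59) and ZEB1 (0.94) higher. Without shNSi culture 1, 4678 genes and 4 of 7 members were called in light polysomes, VIM (−1.09), CD44 (−1.46), SNAI1 (0.89) and ZEB1 (1.25, adjusted p = 4.7e-06). Without shNSi culture 2, 781 genes and 2 of 7 members were called, CD44 (−0.82) and SNAI1 (1.95), with ZEB1 at 0.35. The median change of the 7 members in heavy polysomes was log2 −0.99, beside 0.09 over all genes tested. A two-sided exact permutation test of 1 gene over 2 and 2 cultures can reach 0.333 at the lowest, so these calls draw on the spread shared across genes.

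**Figure D2:**
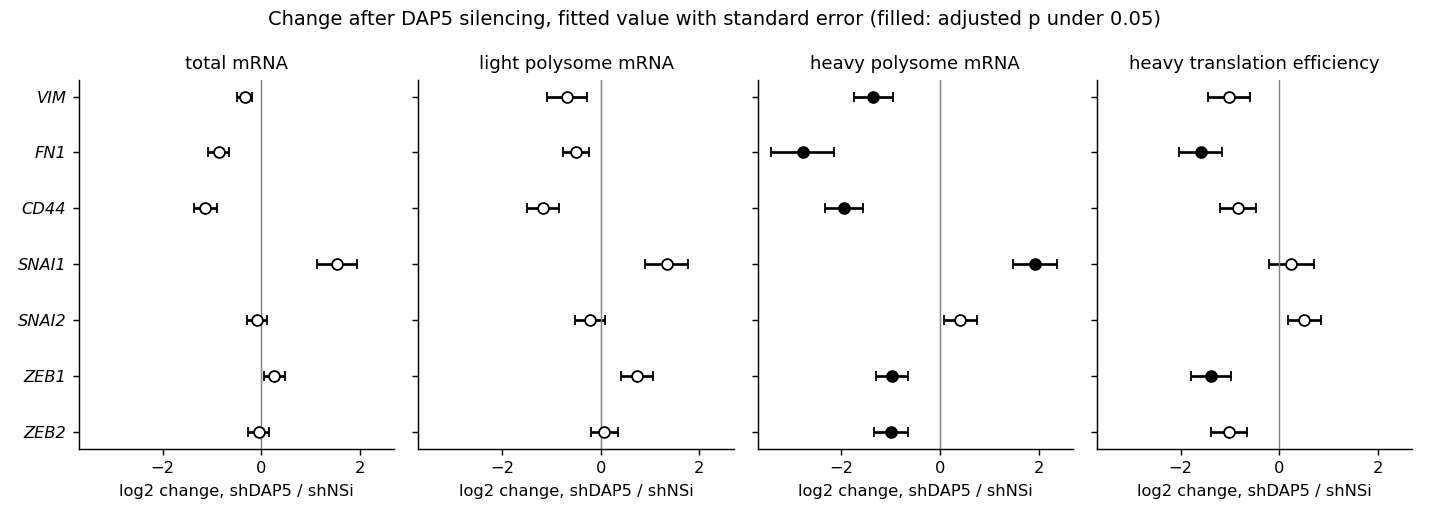
Fitted log2 change of shDAP5 against shNSi (x axis, points with standard error) for the 7 tested EMT genes in 4 comparisons. Filled points passed an adjusted p of 0.05 and open points did not, and filled points stand in the 2 panels on heavy polysomes, at 6 genes for heavy polysome mRNA and at FN1 and ZEB1 for heavy translation efficiency.

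The heavy polysome calls rest on few libraries. Without shDAP5 culture 2, whose ZEB1, ZEB2 and FN1 were the lowest, 0 of 7 members and 2 genes in all were called, and the member changes kept their signs (CD44 −2.47, VIM −1.41, FN1 −2.60, ZEB1 −0.50, ZEB2 −0.62, SNAI1 1.27), with those of CD44 and VIM no smaller than with it. Without shNSi culture 2, 2106 genes and 3 of 7 members were called, and VIM, ZEB1 and ZEB2 missed the threshold at −1.31, −1.001 and −0.97. With an offset for coding length, which takes out each library's trend of counts with the length of the coding sequence, 1475 of 12139 genes and 3 of 7 members were called. VIM (log2 −1.28), CD44 (−1.44) and SNAI1 (1.37) remained past the threshold, while FN1 (−1.64, adjusted p = 0.0648), ZEB1 (−0.30) and ZEB2 (−0.26), whose coding sequences are the longest of the 7, did not. Without TMM 3643 genes and 4 of 7 members were called, without ZEB1 (−0.69, adjusted p = 0.208) and ZEB2 (−0.72, adjusted p = 0.163), and with limma 3804 genes and 4 of 7 members, without VIM (−0.72, adjusted p = 0.0659) and ZEB1 (−0.92, adjusted p = 0.0727).

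Heavy translation efficiency, the level in heavy polysomes over that in total mRNA of the same culture, asks whether the gradient changed beyond the mRNA amount. FN1 changed by log2 −1.60 (SE 0.43, edgeR quasi-likelihood test of the interaction, adjusted p = 0.0229) and ZEB1 by −1.39 (SE 0.40, adjusted p = 0.0264). ZEB2 (−1.03, SE 0.37, adjusted p = 0.0538), VIM (−1.03, SE 0.42, adjusted p = 0.0926) and CD44 (−0.84, SE 0.36, adjusted p = 0.107) did not pass, nor did SNAI1 (0.24, SE 0.46) or SNAI2 (0.51, SE 0.33). Thus 2 of 7 members were called, both lower, where 13.1% of 15374 genes were called and 8.23% were called lower. DESeq2 called 2127 of 15374 genes and 5 of 7 members, with VIM (−1.09, adjusted p = 0.00926), CD44 (−0.90, adjusted p = 0.0298) and ZEB2 (−1.09, adjusted p = 0.0496) added. Library sizes without TMM, limma and the shNSi moderate pool as control each gave 0 of 7, with 0, 408 and 0 genes called. The moderate pool is a lighter fraction than the shDAP5 heavy libraries it was set against.

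Per culture, the heavy over total difference of log2(CPM + 1) was 1.21 and 1.38 for VIM in shNSi and 0.20 and 0.28 in shDAP5. For FN1 it was −0.38 and 1.25 in shNSi and −0.84 and −1.49 in shDAP5, so shNSi culture 1 lay nearer to the shDAP5 cultures than to shNSi culture 2. CD44 gave 1.00 and 1.15 in shNSi and 0.12 and 0.30 in shDAP5. For ZEB1 the values were 0.54 and 1.14 in shNSi and 0.19 and −1.31 in shDAP5, and for ZEB2 0.45 and 0.96 in shNSi and 0.19 and −0.81 in shDAP5. In these 5 genes the arms did not overlap. SNAI2 was at −0.42 and −0.56 in shNSi and 0.00 and −0.05 in shDAP5, and the SNAI1 cultures overlapped. Counted over the 7 members, 6 separated the arms in the fitted comparison, beside 59.6% of all genes tested.

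These 2 calls depended on single cultures and on the processing. FN1 was −0.80 without shNSi culture 2 (adjusted p = 0.643) and −1.27 without shDAP5 culture 2 (adjusted p = 0.172), and ZEB1 was −1.12 (adjusted p = 0.584) and −0.65 (adjusted p = 0.299). With coding length offsets FN1 was at −0.64 and ZEB1 at −0.69, neither past the threshold, while VIM, at −0.97, passed it (adjusted p = 0.0397). Without TMM the values were −1.38 for FN1 (adjusted p = 0.0999) and −1.18 for ZEB1 (adjusted p = 0.141).

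Light translation efficiency, the light polysome level over total mRNA, gave 0 of 7 calls by edgeR's quasi-likelihood test, as for all 15967 genes tested (0%), and DESeq2 called 0 members as well. The 1 member with an unadjusted p under 0.05, where 5.22% of genes had one, was ZEB1 with log2 0.55 (SE 0.24, adjusted p = 0.879). Without shNSi culture 1, 2030 genes and 3 of 7 members were called, VIM (−0.70), FN1 (0.70) and ZEB1 (0.75).

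**Figure D3:**
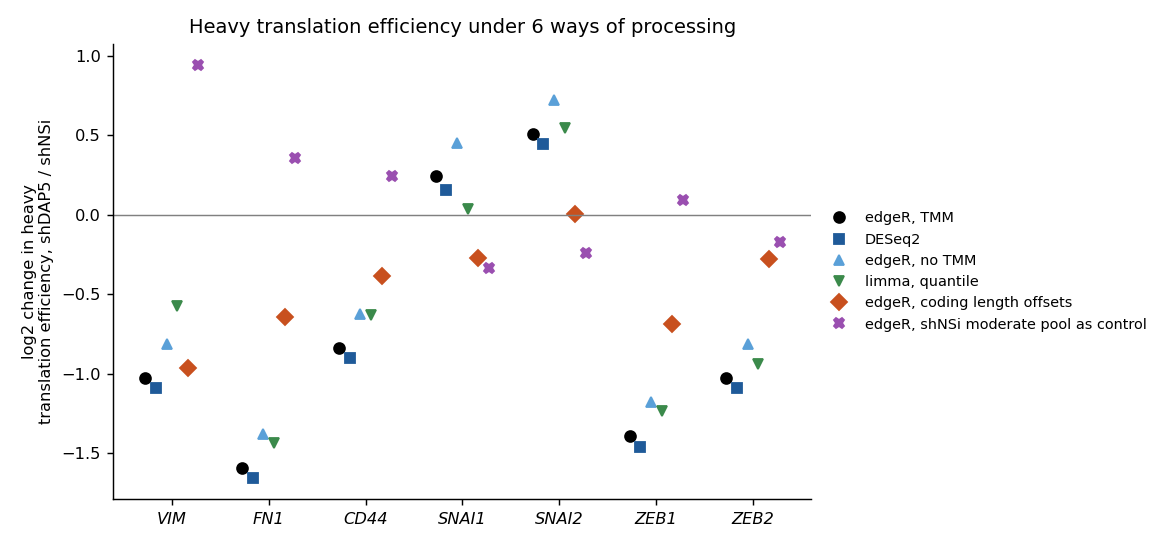
Log2 change in heavy translation efficiency (y axis) of the 7 tested EMT genes under 6 ways of processing, each with its own symbol. The points of FN1 and ZEB1 move from −1.60 and −1.39 with TMM to −0.64 and −0.69 with coding length offsets. With the shNSi moderate pool in place of the shNSi heavy fraction VIM turns to 0.94. That setting compares unlike fractions, since the heavy libraries of both arms carry the same code.

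Where each mRNA sat in the gradient was tested as heavy against light polysomes within each arm. In shNSi cells VIM was enriched in heavy polysomes by 8.52-fold (log2 3.09, SE 0.50, edgeR quasi-likelihood test, adjusted p = 2.9e-05). The enrichment was 6.75-fold for FN1 (log2 2.76, SE 0.44) and 4.92-fold for CD44 (log2 2.30, SE 0.37). FN1 was at 3.88 without shNSi culture 1, above VIM (2.71), and at 1.64 without shNSi culture 2, below CD44 (2.39). Lower values belonged to ZEB1, 2.64-fold (log2 1.40, SE 0.33), and ZEB2, 2.26-fold (log2 1.17, SE 0.30). SNAI2 lay toward light polysomes, 2.01-fold lower in heavy (log2 −1.01, SE 0.28, adjusted p = 0.00377). SNAI1 (log2 −0.70, SE 0.39, adjusted p = 0.123) and CDH2 (−0.05, SE 0.74) did not pass. The SNAI1 value was −1.29 without shNSi culture 1 and −0.06 without shNSi culture 2. So 6 of 8 tested members passed, 5 higher and 1 lower, where 61.6% of 15878 genes passed, 30.5% higher and 31.1% lower. With coding length offsets 6465 of 12601 genes were called and 3 members passed, VIM (2.66), FN1 (1.31) and CD44 (1.37). ZEB1 (0.20), ZEB2 (−0.06) and SNAI2 (−0.42) did not pass there. Without TMM 10443 genes and 7 members passed.

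In shDAP5 cells the same comparison passed for VIM (4.86-fold, log2 2.28, SE 0.49, adjusted p = 0.00133) and CD44 (2.54-fold, log2 1.34, SE 0.37, adjusted p = 0.00691). FN1 had log2 0.75 (SE 0.40, adjusted p = 0.145), ZEB2 −0.06 (SE 0.30), ZEB1 −0.59 (SE 0.32), SNAI2 −0.47 (SE 0.27) and SNAI1 −0.35 (SE 0.34). This was 2 of 8 members, both higher, beside 39.7% of all genes and 19.8% in that direction. CD44 lost its call without shDAP5 culture 2, at 0.96 (adjusted p = 0.288).

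The difference between the arms in this position was tested itself. ZEB1 shifted by log2 −2.00 (SE 0.46, edgeR quasi-likelihood test of the interaction, adjusted p = 0.0204) and FN1 by −2.01 (SE 0.58, adjusted p = 0.0490) toward light polysomes in shDAP5 cells. ZEB2 was at −1.24 (SE 0.42, adjusted p = 0.0742), CD44 at −0.96 (SE 0.51, adjusted p = 0.247) and VIM at −0.81 (SE 0.66, adjusted p = 0.479). The snail genes and CDH2 had positive values, SNAI2 0.54 (SE 0.39), SNAI1 0.35 (SE 0.52) and CDH2 1.21 (SE 1.03), none past the threshold. These are 2 of 8 members, both lower, where 6.75% of genes were called and 5.21% were called lower.

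Culture by culture, ZEB1 gave heavy over light values of 0.97 and 1.89 in shNSi and 0.04 and −1.02 in shDAP5, on the scale of log2(CPM + 1). FN1 gave 1.65 and 3.88 in shNSi and 0.91 and 0.72 in shDAP5. Neither gene's arms overlapped, nor did those of 54.9% of all genes tested, and shNSi culture 2 had the higher value of its arm in both. VIM gave 3.52 and 2.76 in shNSi and 2.06 and 2.69 in shDAP5, so its arms nearly met. SNAI2 was at −0.93 and −0.94 in shNSi and −0.36 and −0.38 in shDAP5, the closest agreement between cultures among the 7 members tested in every comparison. The FN1 shift was −0.88 without shNSi culture 2 (adjusted p = 0.266) and −1.89 without shDAP5 culture 2 (adjusted p = 0.480), and the ZEB1 shift −1.43 without shDAP5 culture 2 (adjusted p = 0.638). With coding length offsets neither passed (FN1 −0.82, ZEB1 −1.07) and 0 of 12601 genes were called, against 1072 of 15878 by the same edgeR test without them. Offsets were fitted on genes with a known coding length, so fewer genes were tested. With the shNSi moderate pool in place of shNSi light, which the code of the shDAP5 light libraries names, 3762 genes were called. ZEB1 (−2.12) and FN1 (−1.24) both passed there, while VIM turned to 0.27 and CD44 to 0.22.

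**Figure D4:**
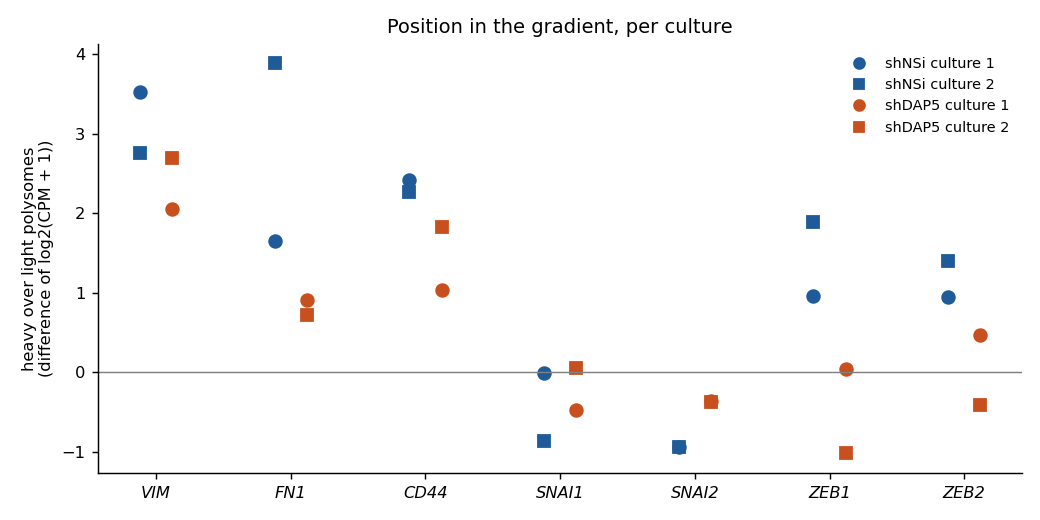
Heavy over light polysome level (y axis, difference of log2(CPM + 1)) of the 7 tested EMT genes, with 1 point for each culture, blue for shNSi and orange for shDAP5. For ZEB1 the shNSi points are at 0.97 and 1.89 and the shDAP5 points at 0.04 and −1.02, and for SNAI2 both shNSi points lie below both shDAP5 points.

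The shNSi moderate pool shows the course of the gradient in control cells. Between light and moderate polysomes VIM was higher by 0.94 and 1.34 (log2(CPM + 1), cultures 1 and 2) and between moderate and heavy by 2.58 and 1.42. CD44 gained 0.92 and 1.55 in the first step and 1.5 and 0.72 in the second, and FN1 0.31 and 1.30, then 1.33 and 2.59. ZEB1 made its gain in the second step, with −0.42 and 0.30 in the first and 1.39 and 1.59 in the second. SNAI2 gave −0.02 and −0.45 in the first step and −0.91 and −0.49 in the second. Every one of these genes but ZEB1 moved the same way in both steps and both cultures. The step from moderate to heavy was tested with the moderate pool in place of light, where 6084 genes and 6 members passed, with VIM (2.004), FN1 (1.99), CD44 (1.11), ZEB1 (1.52) and ZEB2 (0.89) higher and SNAI2 (−0.72) lower in heavy.

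Other genes of the EMT program were read from lists, with counts called by edgeR's quasi-likelihood test. Over all genes, 16.7% were called lower and 14.2% higher in heavy polysomes, and 8.23% lower and 4.85% higher in heavy translation efficiency. Of 16 further mesenchymal genes (such as CDH11, SPARC, AXL and LOX), 14 were tested in heavy polysomes, where 8 fell and 1 rose, with a median log2 change of −1.25 (0.09 over all genes). Total mRNA had 1 lower of 14, where 0.267% of all genes were called lower, with a median of −0.64 (0.01 over all genes). Light polysomes had 0 of 14, where 0% of all genes were called, with a median of −0.83 (−0.01 over all genes). In heavy translation efficiency 4 of 15 fell and 2 rose. Of 16 epithelial genes (such as EPCAM, keratins, claudins and ESRP1), 5 had a mean under 1 CPM and 11 were tested, of which 1 rose and 1 fell in heavy polysomes (median 0.46), and in heavy translation efficiency 0 of 12 rose and 1 fell (median −0.32, 0.09 over all genes). The 12 genes of the TGF-beta pathway, which induces EMT, were all tested, and 2 fell in heavy polysomes and 2 in heavy translation efficiency, a share in heavy polysomes no different from that of all genes. Among the 4 catenins of the cadherin complex, 3 fell in heavy polysomes and all 4 in heavy translation efficiency, and of 5 partners of CD44 (ezrin, radixin, moesin and 2 hyaluronan synthases) 3 fell in each. Of 10 cofactors and turnover enzymes of the SNAI and ZEB factors 9 were tested and 0 passed in total mRNA, in either polysome fraction or in either translation efficiency, and of 5 other EMT factors 2 were tested and 0 passed in these 5 comparisons.

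From each list the lowest and highest calls in heavy translation efficiency are named. LOXL2, a lysyl oxidase that cross-links matrix, had 358 and 781 CPM in shNSi heavy polysomes and 104 and 129 CPM in shDAP5, with a heavy translation efficiency change of log2 −1.58 (SE 0.35, adjusted p = 0.0075). S100A4, a calcium-binding protein of motile cells, was higher, with 110 and 138 CPM against 515 and 451 CPM in heavy polysomes and a change of 1.19 (SE 0.36, adjusted p = 0.0272). DSP, desmoplakin of epithelial junctions, was lower as well, from 144 and 211 CPM to 47.3 and 23.8 CPM in heavy polysomes, with a change of −1.78 (SE 0.40, adjusted p = 0.00849). TGFB2 had a change of −1.07 (SE 0.35, adjusted p = 0.0347) and its co-receptor TGFBR3 of −1.14 (SE 0.38, adjusted p = 0.0404). Alpha-catenin (CTNNA1) had 1068 and 1501 CPM in shNSi heavy polysomes and 493 and 324 CPM in shDAP5, a change in translation efficiency of −1.49 (SE 0.38, adjusted p = 0.0104), while its total mRNA was at 522 and 473 CPM against 461 and 440 CPM. Plakoglobin (JUP) had a change of −1.09 (SE 0.35, adjusted p = 0.0321), but its heavy polysome change did not pass (log2 −0.28, SE 0.35). Its heavy polysome levels overlapped, at 28.3 and 38.5 CPM in shNSi and 39.0 and 13.1 CPM in shDAP5. JUP total mRNA was at 13.8 and 14.55 CPM in shNSi and 32.6 and 13.75 CPM in shDAP5. Moesin (MSN) and radixin (RDX), which link CD44 to actin, gave −1.41 (SE 0.39, adjusted p = 0.0162) and −1.17 (SE 0.35, adjusted p = 0.0235). All 9 missed the threshold without shNSi culture 2, without shDAP5 culture 2 and without TMM. With coding length offsets DSP (−0.80), S100A4 (0.29), TGFBR3 (−0.58) and JUP (−0.64) missed it, and the other 5 passed.

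Across the 14 libraries, which are fractions of only 4 cultures and share their depth and scaling, the members' log2(CPM + 1) values followed a few patterns. Pearson's r was 0.82 between VIM and FN1, 0.86 between VIM and CD44 and 0.80 between ZEB1 and ZEB2. SNAI2 ran against VIM (r = −0.77) and SNAI1 against ZEB2 (r = −0.64), while SNAI1 and SNAI2 showed little relation (r = −0.02). Among 9387 genes with a mean of at least 10 CPM, the genes most like VIM were CNDP2 (r = 0.997), PGD (0.995) and RTCB (0.994). FN1 was most like IGF2R (0.976), LTBP1 (0.969) and RRBP1 (0.967), and CD44 like CTSS (0.993) and NT5E (0.989). The nearest genes to SNAI2 were KAZN (0.976), CTDSPL (0.972) and LRRC20 (0.969). ZEB1 was most like ZNF605 (0.970), GCC2 (0.969) and JMJD1C (0.962), and ZEB2 like JARID2 (0.972) and AKAP11 (0.962). SNAI1 was under the minimum level for this list.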

How the data were processed

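RNA from 14 libraries (total mRNA and sucrose gradient fractions of MDA-MB-231 cells) was sequenced as single reads on an Illumina HiSeq instrument. The authors deposited counts: whole-number reads of each of 58434 gene symbols, not normalized, 25899838 to 30795910 in each library, of which 27761 symbols had 0 in every library. The submitters' processing notes name STAR 2.6.0a, limma and hg19. The counting tool's settings, its annotation and its use of strand are not given in the sources used here. Low counts limit the precision for SNAI1, CDH1 and CDH2.

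The counts were filtered with filterByExpr, scaled by TMM and tested with the robust quasi-likelihood test of edgeR 4.0.16 (R 4.3.3), with Benjamini-Hochberg adjustment over all genes tested and a threshold of 0.05. Each fraction was 1 fit of 4 libraries. Translation efficiency and the difference between the arms in heavy against light polysomes were interactions in fits of 8 libraries with a term for each culture. Heavy against light within each arm was a contrast of the latter fit. Every adjusted p in the text comes from these fits unless another tool is named. Levels are CPM on 1 TMM scale over the 14 libraries, so their ratios differ slightly from the fitted folds. The test was also run on counts simulated from its own fitted model, with the outcome not reported here. This covered total mRNA, heavy polysomes, heavy translation efficiency and heavy against light between the arms. Such a run checks the code and cannot show whether the model holds for these cultures. The 10 members and the lists were chosen with earlier results of these data known. The named genes are the members, EIF4G2, the lowest and highest calls of each list in heavy translation efficiency and the 3 genes most correlated with each member, of which some are not reported here. Other genes named are markers, antisense neighbours of members or examples of lists. Positions and lengths come from GENCODE v29 (GRCh38, matched by symbol) and promoters from RefSeq, shown here for VIM, FN1 and ZEB1. Alternatives were DESeq2 1.42.0, library size without TMM, limma 3.58.1 on quantile-normalized log2(CPM + 1), other count filters, coding length offsets, 1 fit of all 14 libraries, a replicate block, the shNSi moderate pool as control, no culture term and each culture left out.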

Additional observations from a re-analysis of the deposited data

Results flagged for a closer look

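Between the arms, the heavy against light position of 2 members differed by a test of the difference itself. FN1 differed by log2 −2.01 and ZEB1 by log2 −2.00 (shDAP5 minus shNSi, edgeR quasi-likelihood test of the interaction, adjusted p = 0.0490 and 0.0204). Both were lower in 2 of 2 shDAP5 cultures than in 2 of 2 shNSi cultures. In this comparison 6.75% of all genes were called, 5.21% lower, and 54.9% separated the arms. Over their alternatives the FN1 value ran from −3.12 to −0.82 and the ZEB1 value from −2.59 to −1.07. The adjusted p ran from 5.4e-08 to 0.480 for FN1 and from 1.7e-05 to 0.638 for ZEB1 over them.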

How the results depend on the processing

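Single-gene values without TMM kept their direction. Calls were lost for EIF4G2 in total mRNA and for ZEB1 and ZEB2 in heavy polysomes. In heavy translation efficiency they were lost for FN1, ZEB1 and the 9 named list genes. Members called without TMM rose from 6 to 7 in heavy against light in shNSi and from 2 to 3 in shDAP5. With 1 culture left out, 205 single-gene values kept direction and side of the threshold, 42 lost a call, 21 gained one and 16 changed sign. Over the other alternatives 539 kept both, 104 lost a call, 39 gained one and 47 changed sign. The cause was not tested where a value moved. A lone culture left in an arm was assumed to vary like the other group. Without TMM the median of all genes shifted to 0.34 in heavy polysomes, 0.30 in heavy translation efficiency, −0.59 and −0.23 for heavy against light in shNSi and shDAP5 and 0.29 between the arms, and the share of lower calls went from 54.1% to 31.3% in heavy polysomes, from 50.5% to 65.2% and from 50.1% to 63.7% within the arms and from 77.1% to 39.2% between them. With limma it was 100% against 75.5% in total mRNA, 40.9% against 62.9% in heavy translation efficiency and 65.9% within shDAP5, and with coding length offsets 90.9% in total mRNA.

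Counts of genes called, over all genes, moved as follows. Total mRNA (53) had 273 with DESeq2, 18 without TMM, 5 with limma, 577 without the filter, 11 with coding length offsets, 3 with all 14 libraries in 1 fit and 0 to 386 with 1 culture left out. Heavy polysomes (4414) had 1475 with coding length offsets, 50 with the moderate pool as control, 421 with heavy and moderate summed and 2 to 3559 with 1 culture left out. Light polysomes (0) had 105 with DESeq2, 244 without the filter, 1 with all 14 libraries in 1 fit, 3940 with the moderate pool as control, 114 with light and moderate summed and 2 to 4678 with 1 culture left out. Heavy translation efficiency (2012) had 0 without TMM, with all 14 libraries in 1 fit, with the moderate pool, with the summed pools and with no culture term, 408 with limma, 560 with coding length offsets and 4 to 4515 with 1 culture left out. Light translation efficiency (0) had 3 without the filter, 4367 with the moderate pool, 454 with the summed pools and 0 to 2030 with 1 culture left out. Heavy against light in shNSi (9783) had 6465 with coding length offsets and 6084 with the moderate pool in place of light. In shDAP5 (6305) it had 1767 to 7661 with 1 culture left out. Between the arms (1072) it had 1965 with DESeq2, 1637 without TMM, 0 with limma and with coding length offsets, 3762 with the moderate pool and 2 to 2929 with 1 culture left out.

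Counts of members called moved in total mRNA (0) to 3 with DESeq2 and without the filter and 0 to 2 with 1 culture left out. They moved in heavy polysomes (6) to 4 without TMM and with limma, 3 with coding length offsets, 0 with the moderate pool, 3 with summed pools and 0 to 6 with 1 culture left out, and in light polysomes (0) to 5 with the moderate pool and 0 to 4 with 1 culture left out. In heavy translation efficiency (2) they were 5 with DESeq2, 1 with coding length offsets, 0 without TMM, with limma, with 1 fit of all libraries, with the moderate or summed pools and with no culture term, and 0 to 4 with 1 culture left out. In light translation efficiency (0) they were 0 to 3 with 1 culture left out. Heavy against light had 3 of 6 in shNSi with coding length offsets, 1 to 3 in shDAP5 with 1 culture left out (2 in full), and between the arms (2) 0 with limma and with coding length offsets, 1 with at least 10 counts in every library and 0 to 3 with 1 culture left out.

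Replicate numbers were shared between the arms, but the labels tie no cultures together. Deviations of same-numbered libraries correlated at −0.13 in total mRNA, 0.06 in heavy and light polysomes, −0.32 in heavy and 0.02 in light translation efficiency. With the replicate number as a block, 365 genes were called in total mRNA (3 members, FN1, CD44 and SNAI1), 4710 in heavy polysomes (6), 130 in light polysomes (0), 688 in heavy (2) and 1 in light translation efficiency (0). The block with coding length offsets called 22 in total mRNA (1), 3325 in heavy (4), 228 in light polysomes (2), 528 in heavy (0) and 5 in light translation efficiency (0). The crossed replicate block, added after seeing the data, called 4133 genes (5 members) in heavy translation efficiency and 71 (0) in total mRNA. Without the culture terms, which are the replicate block of heavy against light, 8968 genes were called in shNSi, 5005 in shDAP5 and 0 between the arms (0 members).

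Changes of sign in values that did not pass the test in either setting, unless said, were these. With the moderate pool as control (a lighter fraction than heavy), heavy polysome values were 0.46 for VIM and 0.51 for ZEB1, both called otherwise. That of SNAI2 was then −0.40. Heavy translation efficiency was then 0.94 for VIM, 0.35 for FN1, 0.24 for CD44, −0.34 for SNAI1, −0.24 for SNAI2, 0.089 for ZEB1, 0.89 for DSP, 0.75 for LOXL2, 1.20 for CTNNA1, 1.48 for JUP, 1.22 for MSN and 0.54 for RDX, where FN1, ZEB1 and the last 6 were called otherwise. Light polysomes gave 0.038 for SNAI2 and −0.19 for ZEB2, light translation efficiency −0.39 for FN1, −1.10 for CD44, 0.028 for SNAI1, 0.23 for SNAI2 and −0.10 for ZEB2, and the position between the arms 0.27 for VIM and 0.22 for CD44. Summed pools gave −0.085 for SNAI2 in heavy polysomes, −0.065 for ZEB2 in light polysomes and −0.044 for FN1, −0.60 for CD44 and 0.094 for SNAI2 in light translation efficiency. Coding length offsets gave −0.09 for SNAI2 in heavy polysomes (−0.07 with the replicate block), −0.044 for ZEB2 in light polysomes (−0.040), −0.28 for SNAI1 in heavy translation efficiency (−0.28), −0.018 for CD44 (−0.018), 0.053 for SNAI2 (0.054) and −0.025 for ZEB2 (−0.025) in light translation efficiency, −0.059 for ZEB2 in heavy against light in shNSi (called otherwise), and −0.25 for SNAI1 and −0.05 for SNAI2 between the arms. CD44 in light translation efficiency was −0.001 with no culture term, and CDH2 in shNSi 0.007 with DESeq2 and 0.044 without the filter. With 1 culture left out, ranges that crossed 0 were −0.32 to 0.16 for SNAI2 and −0.23 to 0.11 for ZEB2 in total mRNA, −0.51 to 0.14 for SNAI2 and −0.087 to 0.24 for ZEB2 in light polysomes, −0.51 to 0.87 for SNAI1 in heavy translation efficiency, −0.70 to 0.14 for VIM, −0.27 to 0.37 for CD44 and −0.20 to 0.011 for SNAI2 in light translation efficiency, −0.067 to 0.023 for CDH2 in heavy against light in shNSi, −0.51 to 0.41 for ZEB2 in shDAP5 and −0.26 to 0.97 for SNAI1 between the arms.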
